A study of Mus musculus with 16 samples.

Results

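The PIM kinases are 3 serine/threonine kinases encoded by Pim1, Pim2 and Pim3, and their rows were taken by gene symbol from a table of read counts with 23337 gene symbols. All 3 were in the table and all 3 passed the filter on low counts that left 9213 genes for testing. The table holds 16 RNA-Seq libraries of neutrophils enriched from the blood of mice by magnetic negative selection. The mice were of the C57/Bl6 strain and 8 weeks old. Control neutrophils carried the floxed alleles without the recombinase (Ltbr fl/fl Cre-), with 3 unstimulated and 4 stimulated libraries. LTβRΔN neutrophils (Ltbr fl/fl x Mrp8-Cre) lacked the lymphotoxin β receptor, which binds LIGHT and lymphotoxin, with 4 unstimulated and 5 stimulated libraries. Both genotypes therefore shared the floxed Ltbr alleles, and Mrp8-Cre is driven by the S100a8 promoter, which is active in neutrophils and to some extent in other myeloid cells. Per the treatment protocol, cells were kept for 2 h with 3 recombinant cytokines, TNF and GM-CSF (100 ng/ml each) and IL-6 (50 ng/ml), and soluble LIGHT (500 ng/ml) was either added or left out. No label says which libraries received LIGHT or whether the unstimulated ones received the cytokines, so groups are named by their labels only.

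PIM kinases carry no regulatory domain that must be switched on by phosphorylation, and their activity in a cell follows how much protein is made and how fast it is degraded. Cytokine receptors that signal through JAK kinases to STAT3 and STAT5 are the best known inducers of Pim1 transcription, and NF-κB factors are known to raise Pim1 and Pim2 in lymphocytes and leukaemic cells. The kinases phosphorylate BAD, cell cycle inhibitors and regulators of translation, and they are known for supporting survival and growth of blood cells. Granulocytes respond to GM-CSF with longer survival, a response in which PIM1 has been implicated.

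Depth and labels were examined first. Totals lay between 1094335 and 11932653 counts per library with a median of 6429522, and 3 LTβRΔN libraries, 2 of them stimulated, had fewer than 2000000 counts. Values are counts per 1000000 counts of a library (CPM), scaled by TMM, and groups were compared with edgeR's quasi-likelihood test with Benjamini-Hochberg adjustment over all 9213 genes. Ltbr lay at 84.6 to 154 CPM in the 7 control libraries and at 0.705 to 18.1 CPM in the 9 LTβRΔN libraries. Cish, a STAT5 target that dampens cytokine receptors, lay at 0.426 to 5.6 CPM in the 7 unstimulated and at 240 to 589 CPM in the 9 stimulated libraries, so both labels were borne out by their check gene in every library. Markers of mature neutrophils summed to 45500 to 75800 CPM in every library. Elane and Mpo of immature neutrophils, Cd79b and Ms4a1 of B cells, Cd3e of T cells, and Prg2 and Epx of eosinophils were at 0 in all 16 libraries. The 6 immature neutrophil markers summed to 106 to 230 CPM in unstimulated and 78.5 to 764 in stimulated control libraries, and to 40.0 to 205 and 76.8 to 129 CPM in LTβRΔN libraries. These ranges overlap between treatment labels in both genotypes, and their part in the results was not tested. Markers of B cells summed to at most 1.6 CPM, those of eosinophils to at most 11 CPM and those of T cells to 4.3 to 15.4 CPM. Monocyte markers summed to 341 to 563 CPM over 5 genes, with F13a1 and Ccr2 at 0 in all stimulated libraries, and platelet markers summed to 0.898 to 170 CPM. The library index in the labels was S520 in 6 libraries and S521 in 10. All unstimulated LTβRΔN libraries and 2 unstimulated control libraries had S520, so within LTβRΔN neutrophils the index and the treatment cannot be told apart.

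Pim1 lies on chromosome 17 (17:29490753-29496112, plus strand, GRCm38, GENCODE M21), and its joined exons span 3362 bases. Pim2 lies on the X chromosome (X:7878262-7883432, plus strand) with 2795 bases of joined exons, and Pim3 on chromosome 15 (15:88862186-88865726, plus strand) with 2427. The longest annotated transcript of each gene has 6 exons. The start of Pim1 is overlapped by Gm26885, an antisense gene on the opposite strand (17:29446919-29491925) with no row in the table. Whether the counting used strand is not given in the sources used here, so reads of the overlap cannot be assigned to one of them.

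The 250 bases before each RefSeq start are shown so that the promoters of the 3 members can be set beside their values below. They are RefSeq sequences of the build GRCm38.p6, written 5′ to 3′ on the gene's strand. The RefSeq starts lie inside the GENCODE genes given above, so the last bases of each window fall within those gene bounds. Capitals mark the GC box GGGCGG, the CCAAT box CCAAT and the NF-kB motif on either strand. The GAS motif TTCNNNGAA, the sequence type bound by STAT dimers, was searched on both strands too and was found in none of them.
Pim1, chr17:29490535-29490784: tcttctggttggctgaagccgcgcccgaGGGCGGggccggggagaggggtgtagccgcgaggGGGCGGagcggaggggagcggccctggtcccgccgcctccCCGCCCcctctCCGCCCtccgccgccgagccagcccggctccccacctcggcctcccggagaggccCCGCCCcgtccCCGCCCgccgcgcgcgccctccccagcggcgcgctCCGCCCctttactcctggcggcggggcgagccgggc
Pim2, chrX:7878056-7878305: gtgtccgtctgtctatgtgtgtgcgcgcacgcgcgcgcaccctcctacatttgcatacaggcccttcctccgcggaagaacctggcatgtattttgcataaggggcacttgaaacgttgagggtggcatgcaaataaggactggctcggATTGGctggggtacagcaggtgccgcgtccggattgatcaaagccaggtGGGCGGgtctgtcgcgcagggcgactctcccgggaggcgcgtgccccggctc
Pim3, chr15:88861944-88862193: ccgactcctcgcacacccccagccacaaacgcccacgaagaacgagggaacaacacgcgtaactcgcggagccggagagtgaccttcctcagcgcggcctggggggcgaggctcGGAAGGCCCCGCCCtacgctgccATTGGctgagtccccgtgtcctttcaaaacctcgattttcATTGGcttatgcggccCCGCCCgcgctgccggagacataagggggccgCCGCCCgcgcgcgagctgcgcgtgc

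The Pim1 window held 7 GC boxes, starting 222, 188, 148, 137, 82, 71 and 36 bases before the start, and none of the other 3 motifs. Its GC content was 82.4% with 36 CpG dinucleotides, against medians of 52.4% and 6 over 32851 promoters of that length, and 97.4% of promoters had fewer CpG. The Pim2 window held 1 CCAAT box, 101 bases before the start, and 1 GC box at 52 bases. The Pim3 window held 1 NF-kB motif at 136 bases that overlaps the first of its 3 GC boxes (128, 57 and 25 bases), and CCAAT boxes at 113 and 73 bases. Among all 32851 promoters, 32.7% held a GC box, 33.8% a CCAAT box, 7.25% the NF-kB motif and 7.02% the GAS motif. A second annotated Pim1 start lies inside the gene, and its window (17:29492835-29493084) held none of the 4 motifs. Motif matches are descriptions of letters, and binding was not measured here. Sequence outside these windows was not searched for motifs, nor were other spacings of the GAS motif.

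Stimulation was compared within each genotype, which asks how the transcripts of neutrophils with and without the receptor differed between the treatment labels, whatever share LIGHT had in the stimulated cultures. Pim1 was 6.36-fold higher in stimulated than in unstimulated control neutrophils and 5.67-fold higher in stimulated LTβRΔN neutrophils. Pim3 did not pass the test in either genotype, and Pim2 was too sparse to be judged.

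Pim1, the founding member of the family and a common integration site of leukaemia viruses, measured 113, 75.7 and 107 CPM in the 3 unstimulated control libraries. The 4 stimulated control libraries measured 593, 678, 653 and 582 CPM. Every stimulated library thus lay above every unstimulated one, with means of 98.5 ± 19.9 (SD, n = 3) and 627 ± 46.1 CPM (SD, n = 4). The log2 fold change was 2.67 (SE 0.149, 95% interval 2.36 to 2.98, edgeR adjusted p = 1.17e-11), which is a fold of 5.13 to 7.88 at the ends of the interval. Of all 9213 genes tested, 3.48% passed in this comparison, 2.82% as higher and 0.662% as lower, and 6.58% had stimulated libraries that all lay above the unstimulated ones. Of the 3 PIM genes, Pim1 was the one that passed. By p-value it ranked 8 among all genes, and by fold it ranked 66 of the 260 genes that were higher, whose median log2 fold change was 1.51. In bulk libraries a change in the make-up of the cells and a change of RNA per cell cannot be told apart. The labels do not say whether libraries of a group came from separate animals, so the p-values measure the spread between libraries.

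Unstimulated LTβRΔN neutrophils had Pim1 at 126, 128, 111 and 114 CPM. Their stimulated counterparts had 673, 773, 649, 662 and 624 CPM. The lowest stimulated value was again far above the highest unstimulated one, and the means were 120 ± 8.77 (SD, n = 4) and 676 ± 57.0 CPM (SD, n = 5). The log2 fold change was 2.50 (SE 0.130, 95% interval 2.23 to 2.77, edgeR adjusted p = 3.69e-12), or a fold of 4.70 to 6.83. Here 3.73% of all genes passed, 2.98% as higher and 0.749% as lower, and 4.61% had all stimulated above all unstimulated libraries. Pim1 ranked 6 by p-value and 64 of 275 higher genes by fold. It was again the 1 PIM gene that passed.

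The spread of Pim1 within groups was small. The SD of log2 CPM within groups was 0.16, against a median of 0.63 over all tested genes, 0.64 for Pim3 and 1.72 for Pim2. By group the Pim1 SD was 0.31 in unstimulated control neutrophils and 0.11 to 0.12 in the other groups. Counts per library ran from 160 to 6589 for Pim1, 57 to 478 for Pim3 and 0 to 43 for Pim2. The part of count level in these spreads was not tested. An exact two-sided permutation test on log2 CPM gave p = 0.0286 in control and p = 0.00794 in LTβRΔN neutrophils, the smallest values these group sizes allow. Adjusted over the 12 tests of this kind, they became 0.171 and 0.0952 in the permutation tests, so the permutation tests alone do not pass at 0.05. At these group sizes a gene with fully separated groups could not pass after adjustment unless other tests also reached low p. Among libraries with the index S521 only, the control comparison set 1 unstimulated against 4 stimulated libraries and gave a Pim1 log2 fold change of 2.55 (edgeR adjusted p = 4.78e-07), where the lone unstimulated library was assumed to vary like the other groups. Without the 3 libraries of fewer than 2000000 counts, the Pim1 log2 fold change in LTβRΔN neutrophils was 2.55 (edgeR adjusted p = 8.13e-09).

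**Figure D1:**
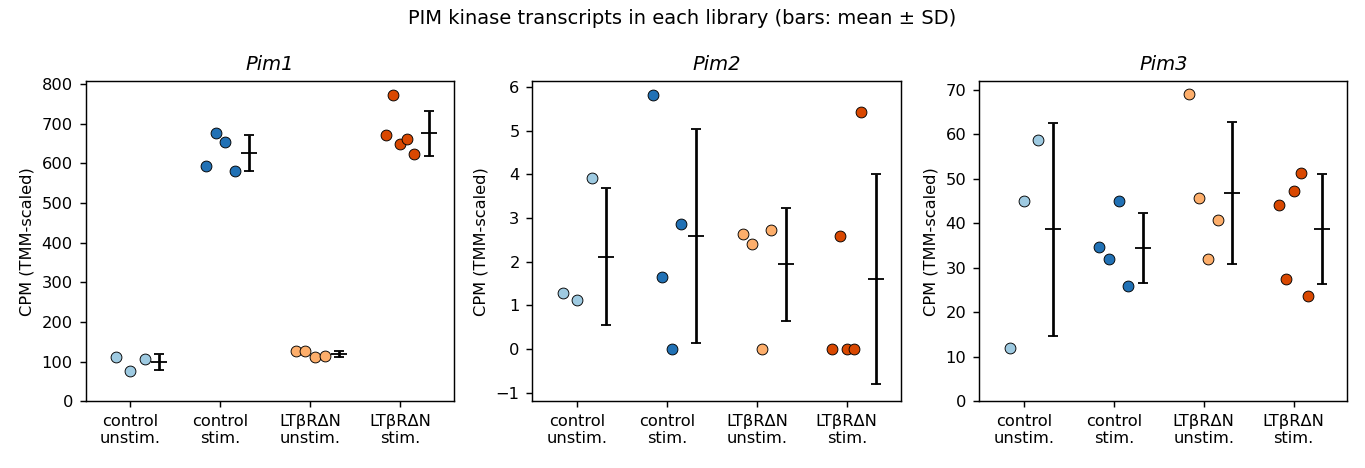
CPM scaled by TMM (vertical axes, one scale per gene) of Pim1, Pim2 and Pim3 in each of the 16 libraries, by genotype and treatment label; points are libraries and bars are mean ± SD. Pim1 lies between 75.7 and 128 CPM in the unstimulated and between 582 and 773 CPM in the stimulated libraries, while the groups of Pim2 and Pim3 overlap.

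Pim3, which shares many substrates with PIM1 and is known from epithelial tumours, measured 12.1, 45.0 and 58.8 CPM in unstimulated control libraries. The stimulated control libraries measured 34.7, 32, 44.9 and 26.0 CPM. These groups overlap, and 1 unstimulated library, replicate 1, lay below all others of both groups. The log2 fold change of Pim3 was -0.16 (SE 0.391, 95% interval -0.97 to 0.65, edgeR adjusted p = 0.964). Without that library it was -0.59, and without unstimulated replicate 3 it was 0.27, so the direction rested on single libraries. In LTβRΔN neutrophils Pim3 measured 69.1, 45.6, 31.9 and 40.7 CPM unstimulated and 44.2, 27.6, 47.2, 51.2 and 23.6 CPM stimulated. Both groups covered much of the same range, and the log2 fold change was -0.29 (SE 0.353, 95% interval -1.02 to 0.44, edgeR adjusted p = 0.848). The intervals leave room for a fold between 0.511 and 1.57 in control and between 0.492 and 1.36 in LTβRΔN neutrophils, and both lie below the intervals of Pim1.

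Pim2, an X-linked member that is prominent in lymphoid cells, was close to the limit of detection. It had 215 counts in all 16 libraries together, no count in 5 libraries and fewer than 10 in 7. Unstimulated control libraries measured 1.29, 1.13 and 3.93 CPM, and stimulated ones 5.81, 1.66, 0 and 2.87 CPM. The library at 0, stimulated control replicate 3, had 11023928 counts, so that a count of 0 allows up to 0.297 CPM (3 counts). Unstimulated LTβRΔN libraries measured 2.63, 2.40, 0 and 2.72 CPM, and stimulated ones 0, 2.60, 0, 0 and 5.42 CPM. Those 4 libraries at 0 allow up to 0.679 CPM in the unstimulated one and up to 1.87, 2.11 and 1.35 CPM in the stimulated ones. The ranges of the 4 groups thus overlap, and unstimulated control neutrophils were the group with no library at 0.

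Summed over the libraries of a group, Pim2 stood at 1.89 CPM (95% Poisson interval 1.42 to 2.46) in unstimulated and 2.46 CPM (1.93 to 3.09) in stimulated control neutrophils. The summed values of LTβRΔN neutrophils were 2.18 CPM (1.63 to 2.86) and 2.20 CPM (1.53 to 3.06). The 4 intervals overlap, and they cover counting error only, since reads of amplified cDNA are not independent molecules. The fold of Pim2 on stimulation was 1.22 in control (95% interval 0.134 to 11.2, edgeR adjusted p = 0.989) and 0.876 in LTβRΔN neutrophils (0.118 to 6.52, edgeR adjusted p = 0.986). Single libraries moved these values. The log2 fold change, 0.29 in control neutrophils, was 1.07 without unstimulated replicate 3 and -0.48 without stimulated replicate 1, with a range of -0.48 to 1.07 over the 7 libraries left out in turn. In LTβRΔN neutrophils it was -0.19, and it was -1.24 without stimulated replicate 5 and -0.61 without unstimulated replicate 3, with a range of -1.24 to 0.12 over 9 libraries. No fit passed. The 95% intervals of the fold leave room for a change of several fold in either direction. The part of depth in their width was not tested. Cd79b, Ms4a1 and Cd3e, defining genes of the lymphoid cells in which Pim2 is prominent, were at 0 in all libraries, while the markers of T cells summed to 4.3 to 15.4 CPM. Their part in the Pim2 values was not tested.

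Genotypes were compared within each treatment label, which asks whether neutrophils without the receptor differ in PIM transcripts. In stimulated neutrophils the ratio of Pim1 in LTβRΔN to control libraries was 1.08 (log2 0.11, 95% interval -0.14 to 0.36, edgeR adjusted p = 0.965), and the groups overlapped. In unstimulated neutrophils it was 1.21 (log2 0.28, 95% interval -0.01 to 0.57, edgeR adjusted p = 1.0). The exact permutation p of this difference was 0.0571 and its adjusted value 0.229. Control replicate 2, at 75.7 CPM, was the lowest of all libraries, and without it the log2 difference fell to 0.12. The difference was 0.39 without control replicate 1 and 0.34 without control replicate 3, and no fit passed. Genes that passed made up 0.0217% of those tested in each of these comparisons, and genes whose groups did not overlap made up 1.31% in stimulated and 5.71% in unstimulated neutrophils. The PIM genes were in neither set. For Pim3 the log2 differences were 0.15 (95% interval -0.58 to 0.89) in stimulated and 0.29 (-0.53 to 1.11) in unstimulated neutrophils, and for Pim2 they were -0.61 (-3.44 to 2.23) and -0.12 (-3.34 to 3.09). The unstimulated Pim3 difference was -0.15 without control replicate 1 and 0.72 without control replicate 3, and the stimulated one lay between 0.03 and 0.31 with 1 library left out.

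The stimulation effects of the genotypes were compared by an interaction term. For Pim1 the effect in LTβRΔN minus that in control neutrophils was -0.17 on the log2 scale (95% interval -0.54 to 0.21, edgeR adjusted p = 1.0), and the interval of the ratio of the 2 induction folds ran from 0.686 to 1.16. The interaction was -0.13 (-1.23 to 0.96, with -0.57 to 0.30 when 1 library was left out) for Pim3 and -0.48 (-4.79 to 3.83) for Pim2. No gene passed the interaction test in edgeR (0.0%), with 342 genes at an unadjusted p under 0.05, and no gene passed it in DESeq2.

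**Figure D2:**
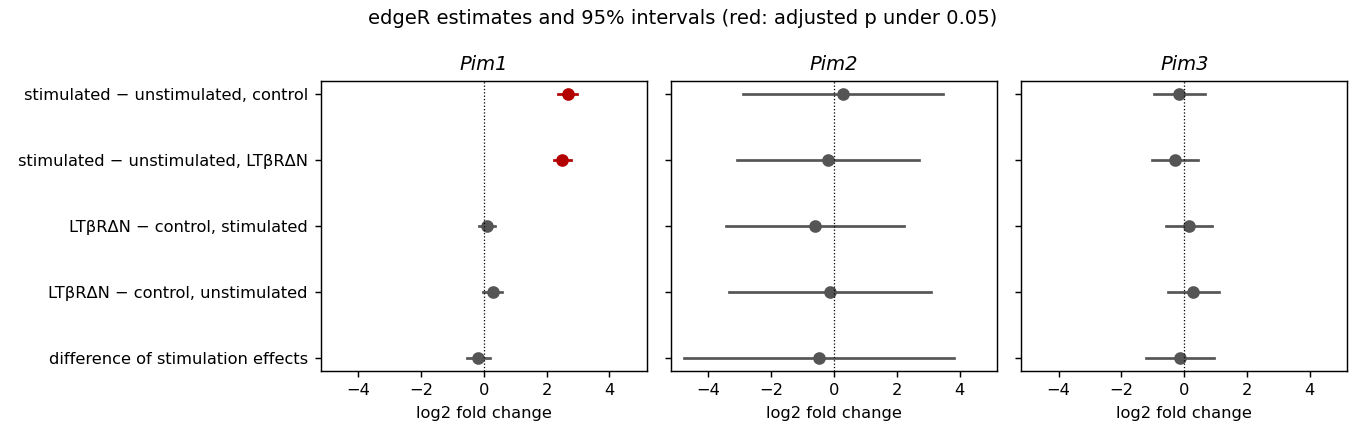
Log2 fold changes (horizontal axes) of Pim1, Pim2 and Pim3 in the 5 comparisons, with edgeR estimates as points, 95% intervals as lines and adjusted p under 0.05 in red. Only the stimulation effects of Pim1, 2.67 and 2.50, are red, and the Pim2 intervals are the widest of the 3 genes in every comparison.

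The order of Pim1 levels was stimulated LTβRΔN, stimulated control, unstimulated LTβRΔN and unstimulated control neutrophils. The neighbours with the same treatment label did not differ beyond their spread, while stimulated control (582 CPM at the lowest) and unstimulated LTβRΔN neutrophils (128 CPM at the highest) were separated. For Pim3 the order of means was unstimulated LTβRΔN (46.8 ± 15.9 CPM, SD, n = 4), stimulated LTβRΔN (38.8 ± 12.3, n = 5), unstimulated control (38.6 ± 24.0, n = 3) and stimulated control neutrophils (34.4 ± 7.89, n = 4). No neighbours in that order differed beyond their spread.

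The members were then set against each other as CPM per kilobase of joined exons, since longer transcripts yield more reads. In unstimulated control neutrophils Pim1 stood at 29.3 ± 5.93, Pim3 at 15.9 ± 9.89 and Pim2 at 0.758 ± 0.562 CPM per kb (SD, n = 3). In stimulated control neutrophils the values were 186 ± 13.7 for Pim1, 14.2 ± 3.25 for Pim3 and 0.925 ± 0.877 CPM per kb for Pim2 (SD, n = 4). LTβRΔN neutrophils had 35.6 ± 2.61, 19.3 ± 6.55 and 0.694 ± 0.465 CPM per kb for Pim1, Pim3 and Pim2 when unstimulated (SD, n = 4) and 201 ± 17, 16 ± 5.08 and 0.574 ± 0.863 when stimulated (SD, n = 5). Pim1 was the most abundant member per length in each of the 16 libraries and Pim2 the least.

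The summed level of the 3 genes was 46.0 ± 10.1 CPM per kb in unstimulated and 202 ± 14.8 in stimulated control neutrophils, and 55.6 ± 8.96 and 218 ± 16.2 CPM per kb in LTβRΔN neutrophils (SD). Pim1 made up 86.0, 54.3 and 55.4% of that sum in unstimulated control libraries and 91.5, 93.6, 91.3 and 93.7% in stimulated ones. Unstimulated replicate 1 stood apart through its low Pim3. In LTβRΔN libraries the Pim1 share was 56.1, 66.0, 71.5 and 65.6% unstimulated and 91.7, 94.9, 90.8, 90.3 and 94.1% stimulated. The shares did not overlap between treatment labels in either genotype. With the longest transcript as length, the mean Pim1 shares were 69.3% in both unstimulated groups, 93.8% in stimulated control and 93.7% in stimulated LTβRΔN neutrophils.

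**Figure D3:**
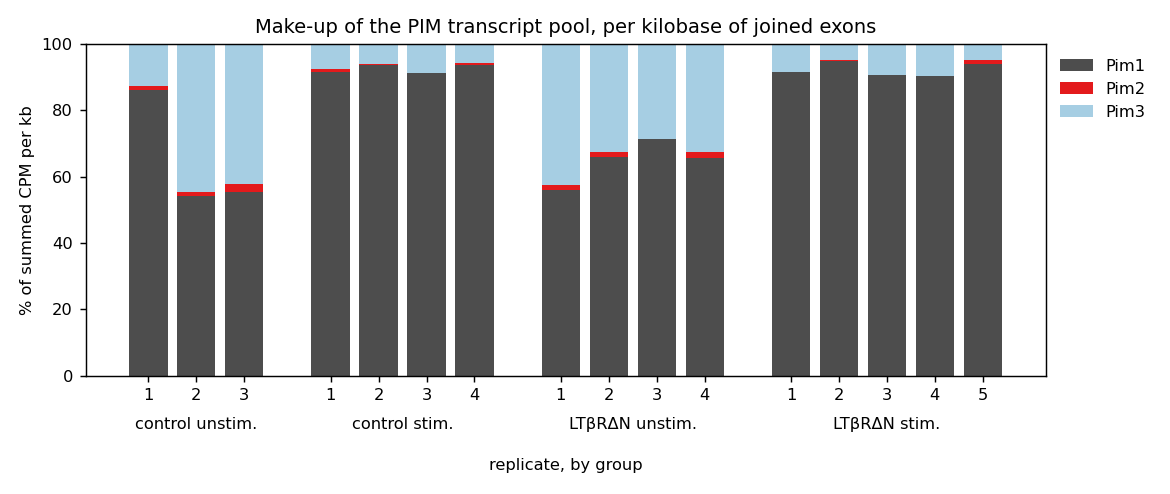
Share of each PIM gene (stacked bars, % of the summed CPM per kilobase of joined exons) in every library, numbered by replicate within its group. Pim1 takes 54.3 to 86.0% in the 7 unstimulated and 90.3 to 94.9% in the 9 stimulated libraries, and Pim2 never reaches 2.5%.

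A ratio of 2 genes within a library does not depend on how libraries are scaled, and it tests whether members changed unequally. The log2 ratio of Pim1 to Pim3 counts was 3.22, 0.75 and 0.86 in unstimulated control libraries and 4.09, 4.40, 3.86 and 4.48 in stimulated ones. The groups did not overlap, although unstimulated replicate 1 lay closer to the stimulated libraries than to its own group. The means differed by 2.60 ± 0.694 (SE), with an exact two-sided permutation p of 0.0286, the smallest possible for 4 against 3 libraries, and an adjusted p of 0.171 over the 12 ratio tests. In LTβRΔN libraries the log2 ratio was 0.87, 1.48, 1.79 and 1.48 unstimulated and 3.92, 4.80, 3.77, 3.69 and 4.71 stimulated. These groups did not overlap either, and their means differed by 2.77 ± 0.321 (SE, exact permutation p = 0.00794, adjusted 0.0952). Here too, a ratio at its smallest possible p could not pass after adjustment unless other tests also reached low p. The mean log2 ratio of Pim1 to Pim2 in stimulated minus unstimulated libraries was 3.42 ± 1.90 (SE) in control (exact permutation p = 0.0857) and 3.10 ± 1.44 in LTβRΔN neutrophils (exact permutation p = 0.0873), with many Pim2 counts at 0. Between genotypes the mean log2 ratio of Pim1 to Pim3 differed by -0.03 (exact permutation p = 0.921) in stimulated and by -0.20 (exact permutation p = 0.857) in unstimulated libraries.

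**Figure D4:**
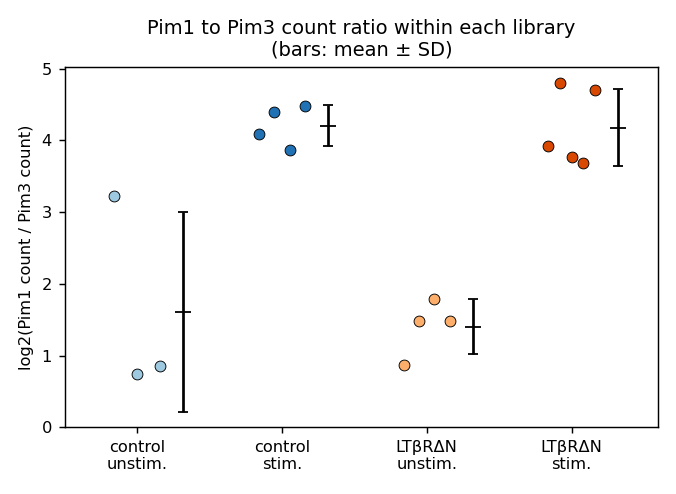
Log2 ratio of Pim1 to Pim3 counts (vertical axis, 0.5 added to each count) within each library, by genotype and treatment label; points are libraries and bars are mean ± SD. The 7 unstimulated libraries lie between 0.75 and 3.22 and the 9 stimulated ones between 3.69 and 4.80.

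The genes upstream and downstream of the PIM kinases were read from 6 lists, described by counts and medians. The list of receptors, JAK kinases and STAT factors that carry GM-CSF, IL-6 and G-CSF signals held 12 tested genes. Its median log2 fold changes were -0.04 in control and -0.03 in LTβRΔN neutrophils, against -0.024 and -0.028 over all genes. Of those 12 genes, 2 rose in both genotypes and none fell, against 2.82% and 2.98% of all tested genes that rose. The 2 were Jak2, the kinase bound to the GM-CSF receptor, with 1.32 and 1.55 on the log2 scale (edgeR adjusted p = 0.000751 and 2.22e-05), and Csf2rb, the shared β chain of that receptor, with 0.65 and 0.55 (edgeR adjusted p = 0.0237 and 0.0303). The count was 1 in control neutrophils without any 1 of the 3 unstimulated libraries or without stimulated replicate 1 or 2, and 1 in LTβRΔN neutrophils without unstimulated replicate 1, 3 or 4 or without stimulated replicate 2, 4 or 5. It was 0 in both genotypes with the library index as a covariate, whose effect was estimated from the unstimulated control group alone. No other group held both indices, and in that group 1 library had S521. Stat3, Stat5a and Stat5b did not pass, with log2 fold changes of -0.03, -0.54 and -0.05 in control neutrophils.

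Among STAT3 and STAT5 target genes other than the PIM genes, 7 of 11 tested rose in control and 6 of 11 in LTβRΔN neutrophils. Of all tested genes, 2.82% and 2.98% rose. The medians of the list were 1.47 and 1.09. Cish had the highest log2 fold change of the list, 8.60 and 8.05, followed by Id1, an inhibitor of helix-loop-helix factors, with 4.10 and 3.48. Socs3, the feedback inhibitor of IL-6 and G-CSF receptors, rose by 4.03 and 3.59. Junb, an AP-1 factor, rose by 1.47 and 1.09. Pim1, with 2.67 and 2.50, therefore lay below Cish, Id1 and Socs3 and above the list's median in each genotype. With the library index as a covariate, whose effect was estimated from unstimulated control libraries alone, 3 of the 11 genes rose in LTβRΔN neutrophils. Mcl1, a survival protein of the BCL2 family on which neutrophils depend, rose in control neutrophils by 1.27 (edgeR adjusted p = 5.82e-05) and had 0.41 in LTβRΔN neutrophils (edgeR adjusted p = 0.228). The difference of its effects was -0.87 (edgeR adjusted p = 1.0), so Mcl1 was not shown to differ between genotypes. Between genotypes the list's median log2 difference was 0.35 in unstimulated neutrophils, with 10 of 11 genes above 0. In stimulated neutrophils it was -0.01, with 5 of 11 above 0. For the interaction it was -0.52, with 2 of 11 above 0. Over all genes these medians were -0.0084, -0.011 and -0.0091. The unstimulated difference and the interaction both use the same unstimulated control libraries, so they are not separate observations. A shift of the list as a whole was not tested.

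Of the NF-κB target genes, 9 of 10 tested rose in each genotype, against 2.82% and 2.98% of all tested genes. The medians of the list, 2.65 and 2.67, were close to the Pim1 values. Tnfaip3, which encodes the deubiquitinase A20, rose by 5.98 and 5.35 on the log2 scale, and Nfkbia, which encodes the inhibitor IκBα, by 5.0 and 4.85. Icam1, an adhesion molecule, rose by 4.15 and 3.33, and Nfkbie, another inhibitor of NF-κB, by 2.92 and 3.10. Nfkbiz, a nuclear member of that family, rose by 2.38 and 2.24. In control libraries of index S521 alone, 5 of the 10 genes rose. The parts of TNF, IL-6, GM-CSF and LIGHT in the Pim1 difference cannot be told apart in this design.

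Transcripts of known PIM substrates mostly did not pass, with medians of 0.18 and 0.05. Of the 21 tested, 2 were higher in each genotype, against 2.82% and 2.98% of all tested genes. The 2 were Cdkn1a, which encodes the cell cycle inhibitor p21, with 2.61 and 1.82 (edgeR adjusted p = 5.54e-09 and 1.37e-07), and Socs1, with 2.58 and 1.68 (edgeR adjusted p = 4.05e-05 and 0.00132), which is also a STAT target. Bad, whose protein is inactivated by PIM phosphorylation, had 1.22 in control (edgeR adjusted p = 0.106) and -0.20 in LTβRΔN neutrophils. Of 9 chaperone and phosphatase genes that act on PIM protein stability, among them Hsp90aa1, Cdc37 and the PP2A subunit Ppp2ca, none passed in edgeR in either genotype, and 1 and 2 of them had an unadjusted p under 0.05, against 1049 and 1199 of all 9213 genes. Of 10 AKT, SGK and S6 kinase genes, which share substrates with the PIM kinases, none rose. In control neutrophils Sgk1 had -1.49 (edgeR adjusted p = 0.0533). It fell in LTβRΔN neutrophils, with -1.53 (edgeR adjusted p = 0.0217), where 0.749% of all tested genes fell. That call was lost without unstimulated replicate 4 or without stimulated replicate 2 or 3. No gene of the 6 lists passed in either genotype comparison or for the interaction in edgeR, while up to 4 genes of a list had an unadjusted p under 0.05. Those 4 were of the 21 PIM substrates in unstimulated neutrophils, where 258 of all 9213 genes did, against 591 in stimulated neutrophils and 342 for the interaction.

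**Figure D5:**
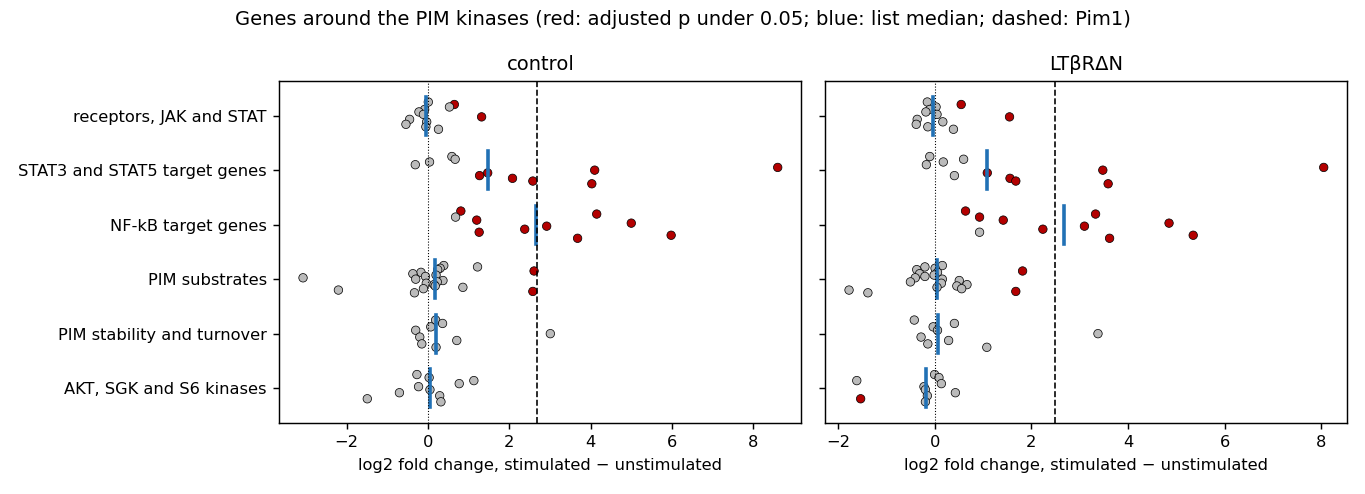
Log2 fold change, stimulated minus unstimulated (horizontal axes), of the tested genes of 6 lists around the PIM kinases in control and LTβRΔN neutrophils, with adjusted p under 0.05 in red, list medians as blue bars and Pim1 as the dashed line. Pim1 lies near the median of the NF-κB targets (2.65 and 2.67) and above that of the STAT targets (1.47 and 1.09), while the medians of the other 4 lists lie within 0.2 of 0.

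The genes most like each member were found by Pearson's r of log2 CPM over the 16 libraries, given as a description because the libraries share groups and scaling. For Pim1 they were Pde4b, a cAMP phosphodiesterase (r = 0.993), Tnfaip3 (0.992), Nfkbia (0.989), Cd274, which encodes PD-L1 (0.989), and Sod2, the mitochondrial superoxide dismutase (0.988). After the group means were subtracted, the most like genes were Il18rap (0.826), Ncoa2 (0.784), Btbd2 (0.782), Lyn (0.772) and Irg1 (0.759), none of which was in the first set. For Pim3 the leading genes were Cep110 (0.761), Gmnn (0.736) and Bicd2 (0.733), and for Pim2, with its many zeros, Ciao1 (0.842), Surf6 (0.823) and Secisbp2l (0.806). Among the members themselves r was -0.185 for Pim1 and Pim2, -0.101 for Pim1 and Pim3 and -0.198 for Pim2 and Pim3.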

How the data were processed

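Per the labels, RNA of magnetically enriched blood neutrophils was amplified as cDNA and sequenced as single-end reads, and the submitters' processing notes list Bowtie 1.0.0, TopHat 1.4.1, HTSeq 0.7.1 and mm10 without roles. The authors deposited 1 table of unnormalised whole-number read counts per gene symbol. Column names gave each library's sample. Strand setting, alignment options and the treatment of reads in overlapping genes are not given in the sources used here.

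The counts were filtered with filterByExpr (minimum count 10, minimum total 15) and fitted with edgeR 4.0.16 in R 4.3.3, with TMM factors and 1 coefficient per group over all 16 libraries. Adjusted p-values under 0.05 counted as passed. Intervals are at the 95% level. Log2 CPM used a prior count of 2 and within-library ratios 0.5 added counts, both tested by exact two-sided permutation. The text names the 3 members, 2 check genes and up to 4 genes per list and comparison that passed, in order of adjusted p. It also names the 5 genes most like Pim1, before and after subtraction of group means, and 3 each for Pim2 and Pim3. Stat3, Stat5a, Stat5b, Bad, Hsp90aa1, Cdc37, Ppp2ca and Mcl1 were added after their values were seen. Members and lists were chosen with earlier results of these data known. Gene positions were from GENCODE M21 and promoters from RefSeq. On simulated counts of the control stimulation comparison (9213 genes, 200 changed), 48.5% of 4-fold, 21% of 2-fold and 1% of 1.5-fold changes were recovered. Alternatives were other scalings and filters, the library index, DESeq2 1.42.0, a replicate block and libraries left out.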

Additional observations from a re-analysis of the deposited data

Results flagged for a closer look

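In groups of 4 or 5 libraries, the distance of the highest and lowest library from the others was compared with Dixon's 95% critical value over 18 groups of values of the PIM genes and their ratios, of which chance alone would mark about 0.9. It marked 1 library in a pair of linked measures. Unstimulated LTβRΔN replicate 3 had Pim2 at 0 CPM while the other 3 libraries of its group measured 2.63, 2.40 and 2.72 CPM, a gap of 0.881 of the group's range against a critical value of 0.829. Its log2 ratio of Pim1 to Pim2 was 9.94, with a gap of 0.96 of the range. Both measures rest on the same Pim2 count of 0, where 3 counts would have been 0.679 CPM.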

How the results depend on the processing

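Pim1 passed the stimulation test in each genotype in edgeR under all alternatives that could be fitted, with log2 fold changes of 2.43 to 2.68 in control and 2.32 to 2.55 in LTβRΔN neutrophils, and 2.50 to 2.78 and 2.45 to 2.53 with 1 library left out. The lowest values came from scaling by library totals or, in LTβRΔN neutrophils, also from the index as covariate; totals moved the median of all genes from -0.024 to -0.27 and from -0.028 to -0.21 and turned the higher and lower calls from 260 and 61 to 201 and 272 and from 275 and 69 to 216 and 293, while Pim1 stayed 2.70 and 2.53 above the median. Pim2 and Pim3 passed under none, with Pim3 at -0.78 to -0.08 and -1.34 to -0.12 on stimulation and Pim2 at -0.61 to 0.74 and -2.70 to 0.57; Pim2 could not be fitted when 10 counts were required in every library, nor in LTβRΔN libraries alone. Genes passing on stimulation in control numbered 157 with the index as covariate and 153 in index S521 alone, which was chosen after seeing the data like the depth limit of 2000000 counts, and 79 in LTβRΔN neutrophils with the covariate. Genotype calls were 1 in stimulated neutrophils with the strict filter and 14 in DESeq2, and in unstimulated ones 4 with every gene counted at least once, 1 with the strict filter, 4 in DESeq2 and 2 to 6 with libraries left out (6 without unstimulated control replicate 1). The interaction gave 1 call with the covariate and 0 to 2 with libraries left out (2 without that replicate). The covariate was estimated from unstimulated control libraries alone, so in LTβRΔN neutrophils it cannot tell index and treatment apart. The causes of the moved counts were not tested. In the exact permutation tests, depth above 2000000 counts left LTβRΔN groups whose smallest p is 0.1, with Pim1 higher by 2.55 and the log2 ratio of Pim1 to Pim3 by 3.02. Leaving out libraries gave 2.51 to 2.79 and 2.17 to 3.4 in control neutrophils, where p can then not fall below 0.0667. The log2 ratio of Pim1 to Pim2 in LTβRΔN neutrophils was 2.52 (exact permutation p = 0.0317, adjusted 0.127) with 2 added counts, 1.89 (exact permutation p = 0.5) in libraries above that depth and 2.64 to 4.21 with libraries left out. The lengths of the longest transcripts raised Pim1 to 36.5, 232, 44.4 and 251 CPM per kb in unstimulated and stimulated control and LTβRΔN neutrophils.

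The numbers in the column names gave 7 pairs, each of an unstimulated and a stimulated library of 1 genotype. Their deviations correlated at 0.0214 to 0.0694, none over 0.1. The labels do not say what the numbers stand for, so the main fit and the permutation tests did not use them as pairs. Whether they mark the same animal was not tested. As a hint from the data and not the design, 13 of 14 libraries correlated best with their own number. A fit with the replicate block gave log2 fold changes of 2.66 and 2.52 for Pim1 and 0.74 and -2.70 for Pim2, 324 and 343 genes passing on stimulation and 0 for the interaction; the genotype comparisons could not be fitted with it.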
